A study of Mus musculus with 15 samples.

Results

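IL6Myc-1 is 1 of 5 mouse myeloma cell lines made from IL6Myc mice, and it was set here against the other 4, IL6Myc-2 to IL6Myc-5. Multiple myeloma is a cancer of plasma cells, the antibody-secreting end stage of the B cell lineage, and mouse lines of this kind are used to study the tumour in a host with an intact immune system. Plasma cells depend on a small set of transcription factors (IRF4, BLIMP-1 and XBP1), on a large endoplasmic reticulum and on signals from the bone marrow such as interleukin 6, and MYC is a common driver when they become malignant. The comparison used all 15 RNA-seq libraries of the panel: 3 technical replicates of IL6Myc-1, and 12 libraries of the other 4 lines with 3 technical replicates each. The labels give the genotype of all 5 lines as IL6Myc, without spelling out its alleles, so whatever those alleles are, the other 4 lines carry the label too. No normal plasma cells and no untreated or parental reference form part of the panel, and the labels name no treatment, age or tissue of origin.

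Total RNA had been extracted with a column kit and made into stranded total RNA libraries. The IL6Myc-1 libraries held 41165599, 25205985 and 20004713 estimated counts, and the 12 other libraries held between 19068543 and 28957852. Levels are given as CPM, counts of a library scaled to a common total by TMM scaling of the library sizes. They are set side by side for the same gene, not between genes, because they are not scaled for transcript length. A difference is the log2 level of IL6Myc-1 minus the mean of the 4 log2 line levels, with its standard error (SE). A gene was called higher or lower when edgeR's quasi-likelihood test gave a Benjamini-Hochberg adjusted p under 0.05 and the log2 difference was at least 1 in size. Since the replicates of a line are technical, the p-values measure the spread between libraries of the same cells, and each line is a single biological unit. In such bulk libraries, fewer cells with a transcript and less of it per cell cannot be told apart.

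The transcription factor genes of plasma cells, and Myc, lay within the range of the other lines in IL6Myc-1. Irf4 stood at 1053, 992 and 995 CPM in the IL6Myc-1 libraries and between 950.4 and 1241 CPM (median 1031) in the 12 others. Prdm1, which encodes BLIMP-1, stood at 177, 173 and 176 CPM in IL6Myc-1, and between 163 and 203 CPM (median 174) in the others. Xbp1, a driver of the secretory programme, had 1635, 1718 and 1690.3 CPM in IL6Myc-1, between 1545 and 1928 CPM (median 1732) in the others, and Myc had 1248, 1339.8 and 1369.6 CPM in IL6Myc-1 and between 1000.4 and 1597 CPM (median 1378) in the others. For each of these 4 genes the IL6Myc-1 libraries lay inside the range of the other libraries, and none was called. Mzb1, a chaperone of immunoglobulin assembly, lay below the range of the others (1249 CPM in IL6Myc-1 against 1779 to 2721 CPM in IL6Myc-2 to IL6Myc-5) but at a log2 difference of -0.82 it did not reach the size threshold. Igkc, the kappa constant region and a main secreted product, was at 15184 CPM in IL6Myc-1 against line means of 16178 to 53650.0 CPM elsewhere. Its log2 difference of -0.74 was also below the size threshold. The libraries overlapped those of IL6Myc-4 (log2 difference -0.09 against that line), and the difference was largest against IL6Myc-2 (-1.82). The 9 tested immunoglobulin constant genes had a median of -0.62, which was -0.15 without IL6Myc-2 and -1.13 without IL6Myc-5. Of the 24 plasma cell identity genes, all tested, 1 was called higher (4.17%, beside 4.39% of all tested genes) and 3 lower (12.5%, beside 8.11%), and the median log2 difference was -0.08 against 0.01 over all tested genes. The 3 called lower were Derl3, a factor of endoplasmic reticulum degradation, at 57.2 CPM in IL6Myc-1 against 136 to 344 CPM elsewhere, and the neighbouring membrane protein genes Tmem176a and Tmem176b. The member called higher, Ly6k, stood at 162 CPM in IL6Myc-1, below the 217 CPM of IL6Myc-3. Its call rested on IL6Myc-2, where it had a single count over 3 libraries, and without that line the log2 difference was -0.14.

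Some defining markers of other cell types were at or near 0 in IL6Myc-1, and other members of the same lists were exceptions with counts. Over its 3 libraries Csf1r and S100a8 (myeloid cells), Gzmb and Ncr1 (cytotoxic lymphocytes), Cr2 (mature B cells), and Hba-a1 and Hbb-bt (red cells) had 0 counts, Lyz2 and Cd14 had 2 counts each, Pax5 had 3, Cd3e 4 and Cd8a 5. Among the exceptions was Ms4a1, a B cell surface gene, at 136 CPM in IL6Myc-1 against 54.9 to 205 CPM elsewhere. Pecam1, of endothelium and also of plasma cells, was another, at 26.3 CPM against 14.3 to 24.9 CPM. So was Mpo, of myeloid precursors, at 1.37 CPM against 0.307 to 1.37 CPM. The summed level of the 23 myeloid markers was 203 to 214 CPM per IL6Myc-1 library and 166 to 875 CPM per library of the other lines. Of those 23 markers, 7 had 0 counts in IL6Myc-1. For the 19 T and NK cell markers in the table the sums were 50.7 to 57.1 CPM in IL6Myc-1, with 6 members at 0 counts, and 26.4 to 128 CPM in the others. The 15 erythroid and megakaryocyte markers summed to 2.64 to 4.09 CPM in IL6Myc-1, with 8 at 0 counts, and to 2.45 to 9.29 CPM in the others. The 19 stromal and endothelial markers summed to 352 to 355 CPM in IL6Myc-1, with 8 at 0 counts, Col3a1 and Cdh5 among them, and to 154 to 495 CPM in the others. The 29 genes of mature B cells, which plasma cells share in part, summed to 1530 to 1580 CPM in IL6Myc-1, with 4 at 0 counts, and to 1510 to 2100 CPM in the others. The markers named above held a small part of each of these sums in IL6Myc-1. Most of each sum came from list members not named above. For the mouse gene Il6, none of the 15 libraries held a count. At the floor of 3 counts its level in IL6Myc-1 is bounded at 0.0332 CPM. The bound covers only reads assigned to that gene. The alleles behind the IL6Myc label are not spelled out, and whether their transcripts would be counted under Il6 was not tested.

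The kappa variable segments of the immunoglobulin genes gave the 5 lines much the same profile, while the lambda segments differed. A single kappa segment, Igkv4-68, held 99.84% to 99.87% of the Igkv counts in the IL6Myc-1 libraries and 99.77% to 99.91% in the others. Of the few Ighv counts in IL6Myc-1 (188 to 405 per library), 95.09% to 97.04% fell on Ighv11-2, against 87.3% to 96.33% in the other lines. Igha had 1933800 counts over the IL6Myc-1 libraries, so these Ighv counts cannot describe the heavy chains of the lines. Iglv3 held 9.47% to 10.8% of the Iglv counts in the IL6Myc-1 libraries. Its share was lowest in IL6Myc-3, at 4.8% to 5.72%, and highest in IL6Myc-4, at 21.1% to 22.4%. All immunoglobulin entries together took 4.79% to 5.19% of an IL6Myc-1 library and 4.61% to 11.6% of the other libraries, the highest being those of IL6Myc-2. The lines differed in transcripts of the Y chromosome: Ddx3y and Eif2s3y had 0 counts in IL6Myc-1 and in IL6Myc-5, while Ddx3y ranged from 25.6 to 47.6 CPM and Eif2s3y from 42.2 to 84.5 CPM over the means of IL6Myc-2, IL6Myc-3 and IL6Myc-4. Xist, the transcript of the inactive X, stood at 1.58 CPM in IL6Myc-1 and at 0.972 to 3.24 CPM elsewhere. With 2 lines at 0 counts the fit gave no usable estimate for Ddx3y and Eif2s3y, so they carry no call. Kdm5d, another gene of the Y chromosome, was low in IL6Myc-1, with 1.398 CPM, and in IL6Myc-5, with 1.79 CPM, against 23.1, 16.04 and 13.7 CPM in IL6Myc-2, IL6Myc-3 and IL6Myc-4.

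In all, 1472 of 11773 tested genes (12.5%) were called in IL6Myc-1, 517 of them higher (4.39%) and 955 lower (8.11%). At any size, 4044 genes were higher and 3990 lower at an adjusted p under 0.05, so the imbalance lay among the larger differences. Of the genes called higher, 415 were highest in IL6Myc-1 among the 5 lines, and of those called lower, 820 were lowest there. The stricter count, of genes called alike in all 4 pairwise comparisons and written below as called against each line singly, held 512 genes (4.35%), with 135 higher (1.15%) and 377 lower (3.2%). All 3 IL6Myc-1 libraries lay above the 12 others for 1706 tested genes (14.5%) and below them for 1585 (13.5%), called or not. IL6Myc-1 differed most from IL6Myc-2 (790 genes called higher, 6.71%, and 1448 lower, 12.3%) and least from IL6Myc-3 (470 higher, 3.99%, and 867 lower, 7.36%). In between lay IL6Myc-4 (692 higher, 5.88%, and 1152 lower, 9.79%) and IL6Myc-5 (660 higher, 5.61%, and 1054 lower, 8.95%). The pairwise comparisons share the IL6Myc-1 libraries. The mean distance between libraries, on log2 levels over the tested genes, was 21.8 among IL6Myc-1 libraries and 70.3 to IL6Myc-3, 78.3 to IL6Myc-5, 84.5 to IL6Myc-4 and 97.7 to IL6Myc-2. A gene was tested when at least 3 libraries had 1 CPM or more, and 194 tested genes had 0 counts in a whole line, so that their fitted differences depend on the prior count and only levels or bounds are given for them. A gene near 0 in IL6Myc-1 could pass that filter only through the other lines and then had to differ. The counts and medians of gene lists with few tested members therefore describe those members and not the list. Shares of a list called higher or lower are to be read beside the 4.39% and 8.11% of all tested genes.

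**Figure D1:**
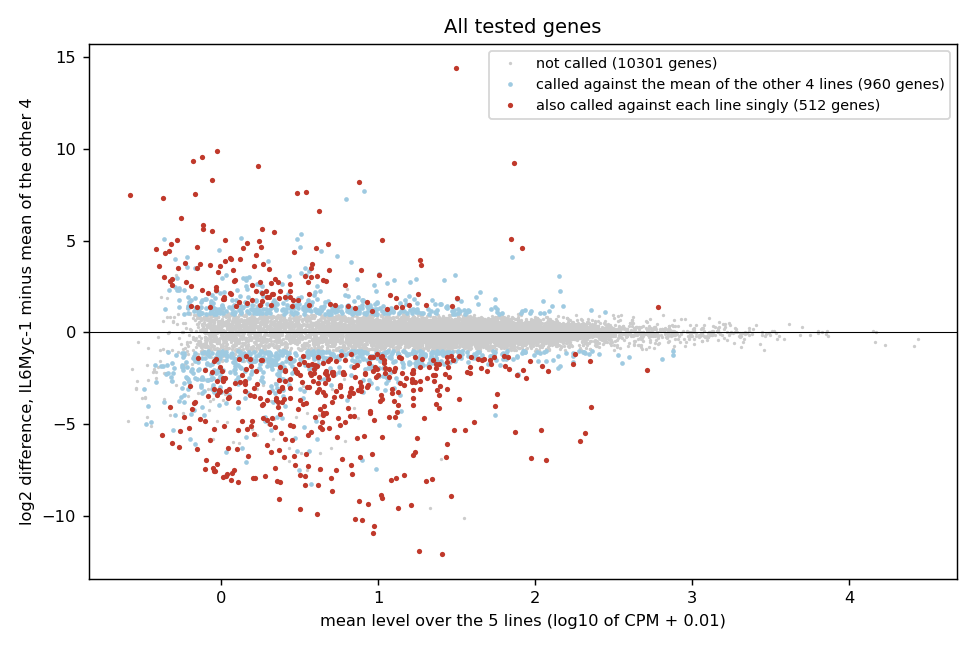
Each point is a tested gene, with the mean level over the 5 lines on the x axis (log10 of CPM + 0.01) and the log2 difference, IL6Myc-1 minus the mean of the other 4 lines, on the y axis. The 512 genes called against each line singly are in red, the other 960 called genes in light blue and the 10301 genes not called in grey. More points lie far below the line at 0 than far above it. Differences of genes with 0 counts in a whole line depend on the prior count of the fit.

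Several genes were abundant in IL6Myc-1 and at or under 1.79 CPM in every other line. Abo, the glycosyltransferase that makes the ABO blood group antigens, had 153, 157 and 155 CPM in the IL6Myc-1 libraries, while 1 read in all was counted for it in the 12 others (at most 0.0478 CPM in a library). Baiap2l1, an I-BAR domain protein that bends membranes and binds actin, had 366, 358 and 363 CPM in IL6Myc-1 and between 0 and 2.39 CPM (median 0.579) in the others. Its level was 202-fold above that of the nearest line, IL6Myc-5 (log2 difference 9.26, SE 0.10, edgeR adjusted p = 5.16e-20). Nucb2, a calcium-binding protein of the secretory pathway, had 36.9, 34.3 and 40.6 CPM in IL6Myc-1 and between 0 and 0.266 CPM (median 0.146) in the others, 209.8-fold above the nearest line. For all 3 genes the IL6Myc-1 libraries agreed closely and the groups lay far apart.

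Other genes were lower in level but also many-fold above the other lines, among them the melatonin receptor gene Mtnr1a, at 19.5 CPM in IL6Myc-1 and 0.0119 to 0.646 CPM in the other lines, and Pcnx2, a pecanex family membrane protein gene, at 8.34 CPM in IL6Myc-1 and at most 0.0703 CPM elsewhere. Zmiz1, a transcriptional coactivator, was at 9.45 CPM in IL6Myc-1 and 0.0232 to 0.606 CPM in the others. Col6a4, which encodes a collagen VI chain, was at 19.6 CPM in IL6Myc-1 and 0.0898 to 2.16 CPM in the others. Less far apart was Rnf130, a ubiquitin ligase gene, at 34.5 CPM in IL6Myc-1, at 5.75 to 6.69 CPM in 3 of the other lines and at 0 counts in IL6Myc-4. Snap25, a membrane fusion protein best known from synapses, was at 5.31 CPM in IL6Myc-1 and at most 0.647 CPM elsewhere. Bmyc, a relative of Myc and also less far apart, was at 6.64 CPM in IL6Myc-1 and 0 to 1.85 CPM in the others. Each of these genes was called against all 4 lines singly. The olfactory receptor gene Olfr901 was also among them, at 15.8 CPM in IL6Myc-1 and 0 to 0.731 CPM in the others, and belongs to a large family of similar genes.

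Other genes stood several-fold above the nearest line. Among long non-coding RNAs, Lncenc1 had 273, 282 and 265 CPM in IL6Myc-1 and between 0.356 and 45.96 CPM (median 15.8) in the others, 6.11-fold above the nearest line, IL6Myc-3. Ptprtos, which lies antisense to Ptprt, had 307, 295 and 291 CPM in IL6Myc-1 and between 0.429 and 62.1 CPM (median 26.1) in the others. Ptprt had 19 counts over the 3 IL6Myc-1 libraries, and the sources used here do not say whether reads were counted by strand. Scamp5, of the secretory carrier membrane proteins, was at 66.01 CPM in IL6Myc-1 and 1.67 to 14.4 CPM in the others. Treml2, a surface receptor of the TREM family, was at 73.03 CPM in IL6Myc-1 and 11.9 to 27.8 CPM in the others. Smoc1, a secreted calcium-binding matrix protein, was at 30.2 CPM in IL6Myc-1 and 1.25 to 12.3 CPM in the others. All 5 were called higher than each line singly. Smoc1, Scamp5 and Treml2 were named here for their level among such genes, after their values were seen.

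Genes of the opposite kind, present in the other 4 lines and with 0 counts in IL6Myc-1, were led by Mfge8, which encodes lactadherin, a bridge between dying cells and phagocytes. It stood between 6.12 and 69.7 CPM (median 25.2) in the 12 other libraries, and IL6Myc-1 was at least 195-fold lower than the nearest line when set at a floor of 3 counts over its libraries. Fat1, an atypical cadherin, was at least 193-fold lower by the same reckoning, and Nckap1, a subunit of the WAVE actin complex, at least 109-fold. Sgce, which encodes epsilon-sarcoglycan, was at least 73.5-fold lower, Enpp4, an ectoenzyme that cleaves nucleotides, at least 44.7-fold, Efhd2, a calcium-binding protein of lymphocytes, at least 38.4-fold, and the kallikrein protease gene Klk4 at least 31.7-fold. The bounds are set by the level of the nearest line. For Igfbp2, an insulin-like growth factor binding protein with 68.8 CPM in IL6Myc-2 and 0.0505 CPM in IL6Myc-4, the bound is 1.52-fold. A count of 0 in a whole line does not show whether the gene is silent or its reads were lost in the counting.

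Other transcripts were within a few counts of 0. Spon1, which encodes the matrix protein F-spondin, had 6 counts over the IL6Myc-1 libraries, 0.0924, 0.0382 and 0.04804 CPM, and between 21.7 and 54.7 CPM (median 34.3) in the 12 others (log2 difference -8.92, SE 0.11, edgeR adjusted p = 6.42e-19). Sirpa, the receptor for the CD47 signal, had 1 count in IL6Myc-1 and between 2.55 and 27.5 CPM (median 12.2) in the others. The transcription factor gene Sox4 had 6 counts in IL6Myc-1 and stood at 4.62 to 60.7 CPM elsewhere. The brain-type creatine kinase gene Ckb had 7 counts in IL6Myc-1 against 10.2 to 37.5 CPM in the others, and Acot7, an acyl-CoA thioesterase gene, 5 counts against 7.56 to 22.5 CPM. Ddhd1, an intracellular phospholipase, and Slco5a1, of the organic anion transporter family, had 1 count each in IL6Myc-1 and were at 7.22 to 12.1 CPM and 3.67 to 5.78 CPM in the others. Lsr, a lipoprotein receptor of tight junctions, had 4 counts in IL6Myc-1 and 8.44 to 32.3 CPM in the others. All of these were called lower than each line singly.

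**Figure D2:**
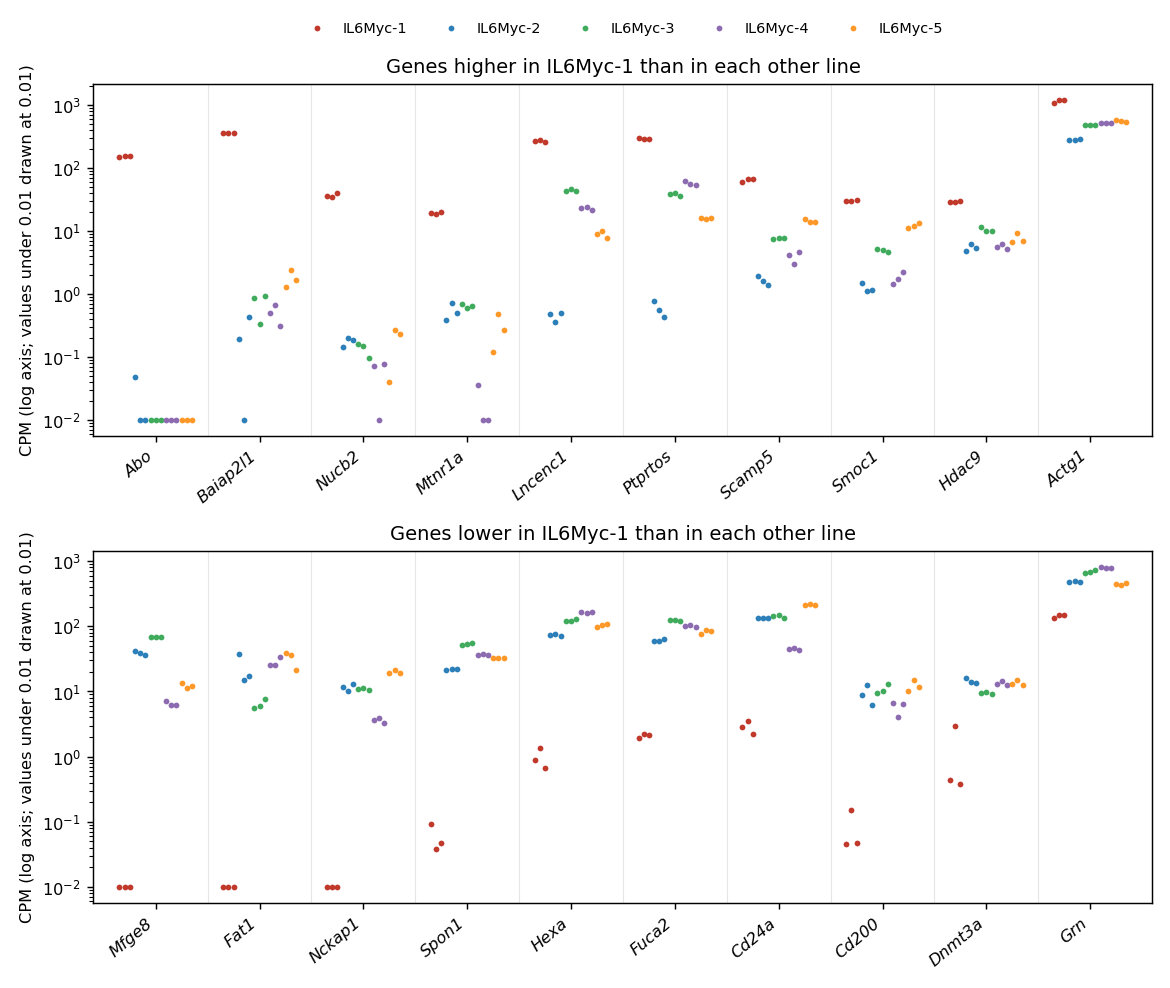
Levels (CPM, log axis, values under 0.01 drawn at 0.01) of 10 genes higher and 10 genes lower in IL6Myc-1 than in each other line, with 1 point per library and IL6Myc-1 leftmost for each gene. The 3 IL6Myc-1 points lie apart from all 12 others for each of these genes. Between line means the distance is 2.09-fold for Actg1 and 202-fold for Baiap2l1, and larger for some others, such as Spon1 (371-fold).

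Single genes of the actin machinery were called. Actg1, the gamma cytoskeletal actin gene, had 1086, 1208 and 1223 CPM in IL6Myc-1 and between 283 and 580.0 CPM (median 509.7) in the other libraries, and was 2.09-fold above the nearest line (log2 difference 1.37, SE 0.03, edgeR adjusted p = 1.00e-15). Its CPM, not scaled for transcript length, was the highest among the genes called higher, predicted genes left out. The gene has processed pseudogenes that can share its reads. Actb, the beta form, was not called, at 1595 CPM in IL6Myc-1 and 994 to 1615 CPM in the others. In the WAVE complex, which drives branched actin growth at the cell edge, Nckap1 had 0 counts, while its blood cell paralogue Nckap1l was at 73.2 CPM in IL6Myc-1 and 100.5 to 138 CPM in the others and was not called. Wasf1, which encodes WAVE1, was called lower against the mean but not against IL6Myc-5, and the WAVE2 gene Wasf2 was at 80.2 CPM in IL6Myc-1 and 75.1 to 86.2 CPM in the others. Abi1 and Cyfip1, of the same complex, were not called.

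The I-BAR genes moved in opposite directions: Baiap2l1 was called higher, while Baiap2, which encodes IRSp53, was called lower at 0.128 CPM in IL6Myc-1 and 1.602 to 8.45 CPM in the others. Of the 37 actin regulators, 35 were tested, with 2 called higher (Baiap2l1 and Vav3, an activator of small GTPases; 5.71%, beside 4.39% of all tested genes) and 3 lower (8.57%, beside 8.11%), and a median log2 difference of -0.15. Outside that list, Enah, an elongation factor of actin filaments, had 6.63, 6.35 and 6.92 CPM in IL6Myc-1 and between 51.97 and 92.4 CPM (median 68.3) in the others, 8.13-fold below the nearest line. Ablim1, an actin-binding LIM protein gene, was at 26.1 CPM in IL6Myc-1 and 64.7 to 337 CPM in the others. Enah and Ablim1 were named after their values were seen, from the most abundant genes called singly.

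Adhesion genes called in IL6Myc-1 were mostly lower. Of 47 integrin and other adhesion genes, 34 were tested, and 11 were called lower (32.4%, beside 8.11% of all tested genes) and 2 higher, with a median log2 difference of -0.49. Of the 11, 3 were lower than each line singly: Mfge8, the tetraspanin gene Cd63 with 0 counts, and Itgb3. All 3 were under 1 CPM in IL6Myc-1, passed the filter only through the other lines and then had to differ. The 32.4% therefore describes the tested members and not the list. Itgb3, the integrin beta 3 chain of the vitronectin receptor, had 0.208, 0.459 and 0.384 CPM in IL6Myc-1 and between 1.26 and 84.3 CPM (median 7.39) in the others. Itgb2, the common chain of the leukocyte integrins, was at 38.9 CPM in IL6Myc-1 and 69.8 to 151 CPM in the others. Cd93, a receptor of long-lived plasma cells, was at 37.8 CPM in IL6Myc-1 and at least 51.04 CPM in the others, and the junctional adhesion molecule gene F11r at 8.702 CPM in IL6Myc-1 and 14.2 to 43.4 CPM in the others. The 2 called higher were Alcam, at 60.6 CPM in IL6Myc-1 and 8.17 to 47.5 CPM in the others, and Itga9, at 9.02 CPM in IL6Myc-1 and 0.0247 to 23.2 CPM in the others. Without IL6Myc-2 in the mean, Alcam had a log2 difference of 0.61 and was not called. Cd44, the hyaluronan receptor, was outside the range of the other libraries at 1062, 1040.0 and 1041 CPM in IL6Myc-1 and between 498 and 604 CPM (median 539) in the others, and its log2 difference of 0.94 fell short of the size threshold.

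Of the 24 cadherins and protocadherins only 6 passed the filter on low levels, and 4 were called lower (Fat1, Pcdhgc3, Celsr2 and the desmosomal partner Jup) and 1 higher (Pcdhga1). Protocadherins of the gamma cluster share exons, so that reads can be split among them. Of surface genes outside these lists, Cd24a, a glycoprotein of B cells, had 2.84, 3.52 and 2.21 CPM in IL6Myc-1 and between 43.4 and 218 CPM (median 135) in the others. Cd200, an inhibitory ligand for myeloid cells, had 7 counts in IL6Myc-1 and between 4.03 and 15.03 CPM (median 9.796) in the others. Of the 20 tested checkpoint and NK ligand genes (35 in the list) 3 were called lower (15%, beside 8.11% of all tested genes). They were Cd200 and the NKG2D ligands Raet1a and Raet1e. The 1 called higher (5%, beside 4.39%) was Pdcd1, which encodes PD-1. It was at 3.17 CPM in IL6Myc-1 and 0.148 to 2.25 CPM in the others. Chemokine genes gave 1 of 9 tested (30 in the list) higher, Ccl3, a chemokine that activates osteoclasts, at 3.49 CPM in IL6Myc-1 and at most 0.116 CPM in the others. The receptors Cxcr3 and Ccr10 were called lower. Cxcr3 had a single count in IL6Myc-1 and was at 134 CPM in IL6Myc-4 but at 0.721 CPM or less in the other 3 lines.

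Some genes of antigen presentation were lower in IL6Myc-1. Class I presentation loads peptides, cut by the proteasome and its interferon-induced immunoproteasome form, onto MHC molecules through the TAP transporter and tapasin. Interferon acts on these genes through STAT and IRF factors that bind short sites near the gene starts. All 23 class I genes were tested, and 5 were called lower (21.7%, beside 8.11% of all tested genes), with a median log2 difference of -0.46. None was called higher by edgeR or by DESeq2, and 4 were higher at an unadjusted p under 0.05 at any size. In 11 of the 23 genes IL6Myc-1 was the lowest of the 5 lines, and without IL6Myc-2 the median was -0.19. Promoter sequence from RefSeq (mouse build GRCm38.p6) is shown for 3 genes called lower, because the sites by which interferon acts lie there. B2m and Psmb8 are class I genes, and Irgm1 is from the interferon-stimulated list. The 3 do not stand for all genes called lower, since each holds a motif described below. It runs over the 250 bases before the start of each gene, 5′ to 3′ on the strand of the gene, and capitals mark GAAA, any 2 bases and GAAA again, the core of an interferon response element, or TTCNNNGAA, a STAT site, found on either strand. B2m on chromosome 2, plus strand, chr2:122147437-122147686, holds the first motif 1 time, Irgm1 on chromosome 11, minus strand, chr11:48871421-48871670, holds it 2 times with an overlap, and Psmb8 on chromosome 17, plus strand, chr17:34197945-34198194, holds the second motif 1 time.
B2m: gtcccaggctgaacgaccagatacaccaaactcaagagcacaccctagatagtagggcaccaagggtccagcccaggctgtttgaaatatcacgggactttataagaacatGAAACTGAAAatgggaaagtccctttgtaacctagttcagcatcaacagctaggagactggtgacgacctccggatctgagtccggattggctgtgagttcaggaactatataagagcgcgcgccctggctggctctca
Irgm1: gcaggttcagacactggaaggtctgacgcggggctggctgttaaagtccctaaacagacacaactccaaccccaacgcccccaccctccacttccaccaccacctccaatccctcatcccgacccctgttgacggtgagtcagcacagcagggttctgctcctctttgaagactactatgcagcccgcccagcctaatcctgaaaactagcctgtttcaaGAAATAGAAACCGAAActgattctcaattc
Psmb8: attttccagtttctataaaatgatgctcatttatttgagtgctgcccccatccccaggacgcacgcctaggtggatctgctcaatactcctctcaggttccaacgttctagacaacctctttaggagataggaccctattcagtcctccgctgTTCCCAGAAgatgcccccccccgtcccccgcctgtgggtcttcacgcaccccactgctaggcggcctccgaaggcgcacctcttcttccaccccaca
The 5 class I genes called lower were the light chain gene B2m, the loading genes Tapbp and Tap2 and the immunoproteasome genes Psmb8 and Psmb9. Psmb8 had 89.7, 90.00 and 82.2 CPM in IL6Myc-1 and between 204 and 310.2 CPM (median 254) in the others, 2.35-fold below the nearest line (log2 difference -1.54, SE 0.05, edgeR adjusted p = 7.08e-14), and it was the only one of the 5 called against each line singly. Tapbp, the tapasin gene, had 58.9, 62.7 and 59.996 CPM in IL6Myc-1 and between 114 and 365 CPM (median 166) in the others. B2m had 383, 381 and 376 CPM in IL6Myc-1 and between 495 and 1556 CPM (median 697) in the others. For each of the 5 genes the IL6Myc-1 libraries lay below all 12 others. The same held for 13.5% of all tested genes and for 575 of the 955 genes called lower. The call of B2m rested on IL6Myc-2: without that line the log2 difference was -0.72, and with library totals in place of TMM scaling it was -0.96. The class I heavy chain genes H2-K1 and H2-D1 were not called, at 294 and 994 CPM in IL6Myc-1 and at 212 to 857 and 687 to 2216 CPM in the others, and reads of such similar genes can be split among them.

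**Figure D3:**
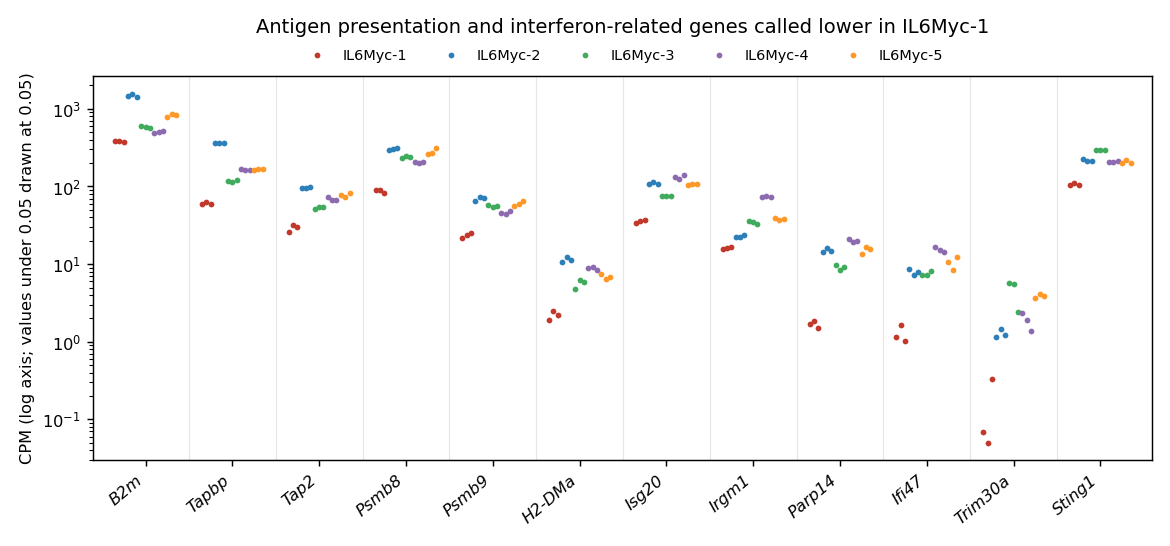
Levels (CPM, log axis, values under 0.05 drawn at 0.05) of 12 genes of antigen presentation, interferon response and pattern recognition called lower in IL6Myc-1, with 1 point per library and IL6Myc-1 leftmost for each gene. The 3 IL6Myc-1 points lie below all 12 others for each gene, and the distance to the nearest line runs from 1.34-fold for B2m to 9.49-fold for Trim30a.

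Of 13 class II genes 7 were tested, and 3 were called lower, with a median of -1.04. Without IL6Myc-2 there was 1 lower and 1 higher, and the median was -0.49. H2-DMa, which edits the peptides of class II molecules, had 1.92, 2.49 and 2.21 CPM in IL6Myc-1 and between 4.77 and 12.3 CPM (median 7.97) in the others and was lower than each line singly. Cd74, the invariant chain, was at 98.5 CPM in IL6Myc-1, above the 66.1 CPM of IL6Myc-3, and its call rested on the 2698 CPM of IL6Myc-2 (log2 difference -0.34 without that line). The same held for Ctsl, which encodes cathepsin L (-0.71 without IL6Myc-2).

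Of 61 interferon-stimulated genes 40 were tested, and 11 were called lower (27.5%, beside 8.11% of all tested genes). Another 2 were called higher (5%, beside 4.39%), and the median was -0.56. Lower than each line singly were 4 of the 11. Parp14, an ADP-ribosyltransferase, had 1.69, 1.87 and 1.49 CPM in IL6Myc-1 and between 8.46 and 21.4 CPM (median 15.1) in the others (log2 difference -3.08, SE 0.10, edgeR adjusted p = 1.51e-13). Ifi47, an interferon-induced GTPase, had 1.16, 1.64 and 1.01 CPM in IL6Myc-1 and between 7.17 and 16.4 CPM (median 8.54) in the others. Isg20, an antiviral exonuclease, had 34.03, 35.7 and 37.2 CPM in IL6Myc-1 and between 74.4 and 142 CPM (median 107) in the others, and Trim30a, which has close relatives beside it on chromosome 7, had 10 counts in IL6Myc-1 and between 1.15 and 5.79 CPM (median 2.36) in the others. In all 4 the libraries of the groups did not overlap, which largely follows from a call against each line singly. Irgm1, a GTPase of cell-autonomous immunity, was at 16.1 CPM in IL6Myc-1 and 22.8 to 73.95 CPM in the others, and lost its call without IL6Myc-4 (log2 difference -0.95). Higher in IL6Myc-1 were Oasl1, a relative of the oligoadenylate synthetases, at 2.34 CPM against 0.452 to 1.03 CPM, and Ifi209, of the repetitive Ifi200 cluster, whose log2 difference was 0.19 without IL6Myc-2. Without IL6Myc-2 there were 1 higher and 15 lower, without IL6Myc-4 4 higher and 8 lower, and without IL6Myc-5 5 higher and 10 lower. The transcription factor gene Irf1 was at 35.9 CPM in IL6Myc-1 and 46.9 to 106 CPM in the others, with a log2 difference of -0.83, and was not called.

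Both motifs were found before called and uncalled members. A promoter was found for 8 of the 11 interferon genes called lower, 19 of the 27 not called and the 2 called higher. The first motif, of the 2 GAAA repeats, stood in the 250 bases of 5 of the 8, 9 of the 19 and 0 of the 2. Of 27025 genes, 3.46% held it. Promoters were found for 4 of the 5 class I genes called lower and 15 of the 18 not called. There the first motif stood in 1 of 4 (B2m) and 2 of 15. TTCNNNGAA stood in 3 of 8 called-lower and 8 of 19 uncalled interferon genes. It stood in 1 of 4 (Psmb8) and 0 of 15 class I genes, and in 8.13% of all genes. A match describes the letters of this window and is not a bound site.

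Among pattern recognition genes, 4 of 19 tested (39 in the list) were called lower (21.1%, beside 8.11% of all tested genes). Sting1, the adaptor of cytosolic DNA sensing, had 104, 109.8 and 104 CPM in IL6Myc-1 and between 198 and 296 CPM (median 216) in the others, with a log2 difference of -1.11 that was -0.99 without IL6Myc-3. Cd180, a Toll-like receptor relative of B cells, was at 3.51 CPM in IL6Myc-1 and 8.44 to 25.4 CPM in the others and was lower than each line singly. Myd88, the adaptor of most Toll-like receptors, was at 9.18 CPM in IL6Myc-1 and 17.8 to 23.8 CPM in the others, and Tlr4, the lipopolysaccharide receptor, at 0.775 CPM in IL6Myc-1 and 1.06 to 9.26 CPM in the others. Myd88 was not called without IL6Myc-4 (log2 difference -0.97).

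In IL-6 signalling, the receptor genes were not called, and 4 other genes were. Il6ra, the ligand-binding chain, was at 13.99 CPM in IL6Myc-1 and 13.5 to 48.2 CPM in the others, and Il6st, the shared signalling chain gp130, at 156 CPM in IL6Myc-1 and 108 to 282 CPM in the others. Stat3, the transcription factor of the pathway, was below all other libraries by a small margin, at 107 CPM in IL6Myc-1 and 116 to 169 CPM in the others. None of the 3 was called. Socs3, which STAT3 induces and which feeds back on gp130, had 3.97, 3.29 and 4.08 CPM in IL6Myc-1 and between 7.64 and 19.2 CPM (median 11.7) in the others, 2.17-fold below the nearest line (log2 difference -1.65, SE 0.09, edgeR adjusted p = 1.52e-10). Of the 39 genes of the list 34 were tested, and 4 were called lower (11.8%, beside 8.11% of all tested genes): Socs3, Socs2, Stat4 and the Janus kinase gene Tyk2. None was called higher by edgeR or by DESeq2, and 10 were higher at an unadjusted p under 0.05 at any size. Tyk2 lost its call without IL6Myc-4, where it stood at 295 CPM (log2 difference -0.58). Among the Pim kinases Pim2 was called lower, at 12.9 CPM in IL6Myc-1 and 16.4 to 137 CPM in the others, by a difference that was -0.43 without IL6Myc-2.

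Feedback genes of the MAPK pathway gave 2 of 28 tested (40 in the list) lower (7.14%, beside 8.11% of all tested genes) and 1 higher (3.57%, beside 4.39%). The median was -0.20, and 0.01 without IL6Myc-5, and 4 were lower without IL6Myc-2. Dusp6, a phosphatase of ERK, had 7.88, 8.07 and 7.83 CPM in IL6Myc-1 and between 17.03 and 29.2 CPM (median 22.3) in the others, below each line singly. Egr1, an early response factor, had 0 counts in IL6Myc-1 and at most 2.32 CPM in another line. Etv4, an ETS factor that also responds to ERK, was called higher instead, at 15.6 CPM in IL6Myc-1 and 4.601 to 11.4 CPM in the others. The core of the RAS and MAPK pathway had 1 of 26 tested members called lower, Rasgrp2.

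In TGF-beta signalling ligand and receptor genes were called. Tgfb1 had 3.17, 4.09 and 2.88 CPM in IL6Myc-1 and between 9.24 and 15.97 CPM (median 13.6) in the others, 3.03-fold below the nearest line (log2 difference -1.92, SE 0.12, edgeR adjusted p = 3.52e-10). Ltbp3 and Ltbp4, which encode proteins that store latent TGF-beta in the matrix, and Id2, a target of the BMP branch, were also lower than each line singly. Id2 had 0.116, 0.382 and 0.384 CPM in IL6Myc-1 and between 1.65 and 6.73 CPM (median 3.54) in the others. In the opposite direction, the type II receptor gene Tgfbr2 was called higher at 30.7 CPM in IL6Myc-1 and 10.3 to 16.9 CPM in the others. Tgfb2 was called higher against the mean at 34.1 CPM in IL6Myc-1, but IL6Myc-4 stood at 34.4 CPM. Tgfbr2 was not called without IL6Myc-5 (log2 difference 0.93), nor Tgfb2 without IL6Myc-2 (0.93). Of the 38 genes of the list 24 were tested, with 2 called higher (8.33%, beside 4.39% of all tested genes) and 4 lower (16.7%, beside 8.11%).

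Of 50 receptor genes for growth factors and hormones 19 were tested, and 7 were called lower (36.8%, beside 8.11% of all tested genes). Several of the 7 had passed the filter only through the other lines. Another 2 were called higher (10.5%, beside 4.39%), and the median was -0.37. Insr, the insulin receptor, had 2 counts in IL6Myc-1 and between 2.31 and 6.79 CPM (median 4.25) in the others. Ephb4 and Epha2, receptors for ephrins, were at 0.803 and 0.425 CPM in IL6Myc-1 and at 4.300 to 20.2 and 1.999 to 19.7 CPM in the others. Ghr, the growth hormone receptor, had 0 counts in IL6Myc-1 and at most 1.69 CPM in another line. Insr, Ephb4, Epha2, Ghr and the binding protein gene Igfbp2 were lower than each line singly. Called higher were Igfbp3, a binding protein and not a receptor, and the retinoid receptor gene Rxra. Igfbp3 was at 20.9 CPM in IL6Myc-1, below the 33.2 CPM of IL6Myc-5, and its log2 difference was 0.28 without IL6Myc-4.

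Downstream of such receptors, the list of AKT, mTOR and phosphoinositide genes had 7 of 33 tested members (39 in the list) called lower (21.2%, beside 8.11% of all tested genes) and 1 higher (3.03%, beside 4.39%). Without IL6Myc-2 4 were lower, and with library totals 5 were lower and 2 higher. Pik3cb, the beta catalytic subunit of PI3 kinase, had 1 count in IL6Myc-1 and between 0.266 and 11.7 CPM (median 6.77) in the others, the lowest being IL6Myc-5 at 0.4501 CPM. Phlpp1, a phosphatase that removes phosphate from AKT, had 1 count in IL6Myc-1 and between 5.35 and 7.08 CPM (median 6.398) in the others. A kinase that leads to AKT activity and a phosphatase that opposes it were both near 0 counts. Tsc2, an inhibitor of mTOR, was called lower at 18.5 CPM in IL6Myc-1 and 33.6 to 43.2 CPM in the others, and was not called without IL6Myc-2 (log2 difference -0.96). The 1 member called higher, Pdk1, encodes pyruvate dehydrogenase kinase 1 and not the AKT kinase of similar name.

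NF-kB genes, 30 of 33 tested, gave 3 lower (10%, beside 8.11% of all tested genes) and 1 higher (3.33%, beside 4.39%). The median was 0.06, and -0.02 without IL6Myc-4. The lower ones, Map3k14, Ltb and Tnf, were at 2.58, 0.0397 and 0.423 CPM in IL6Myc-1 and were high in IL6Myc-2, at 142, 276 and 11.4 CPM. None of the 3 was called without IL6Myc-2, with log2 differences of -0.18, -1.73 and -0.45, and 3 members were then called higher. Tnfaip3, which encodes the inhibitor A20, was called higher at 9.31 CPM in IL6Myc-1, below the 19.2 CPM of IL6Myc-2, and was not called without IL6Myc-4 (log2 difference 0.60). Wnt and Hedgehog genes, 21 of 36 tested, gave 3 lower (14.3%, beside 8.11%) and 1 higher (4.76%, beside 4.39%). Lrp5, a Wnt co-receptor, was at 2.93 CPM in IL6Myc-1 and 8.94 to 29.9 CPM in the others. Gli1, the Hedgehog effector, had 7 counts in IL6Myc-1, 958 CPM in IL6Myc-4 and at most 1.21 CPM in the other 3 lines. Notch genes had 2 of 18 tested (26 in the list) called lower (11.1%, beside 8.11%), Notch3 and Dll4, neither against each line singly. Notch3 was not called without IL6Myc-5 (log2 difference -1.10), nor Dll4 without IL6Myc-4 (-0.76).

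Single lysosomal genes were much lower in IL6Myc-1. Hexa, the alpha subunit of beta-hexosaminidase, had 0.901, 1.34 and 0.672 CPM in IL6Myc-1 and between 70.5 and 163 CPM (median 115) in the others, 76.2-fold below the nearest line (log2 difference -6.83, SE 0.09, edgeR adjusted p = 8.20e-19). Grn, which encodes progranulin, a regulator of lysosomes, had 136, 148 and 148 CPM in IL6Myc-1 and between 425 and 811 CPM (median 579) in the others. Fuca2, an alpha-fucosidase, had 1.96, 2.26 and 2.11 CPM in IL6Myc-1 and between 58.7 and 125 CPM (median 92.05) in the others. Scarb2, which encodes the sorting receptor LIMP-2, had 19.3, 18.5 and 17.1 CPM in IL6Myc-1 and between 75.3 and 141 CPM (median 99.8) in the others. Gnptg, part of the enzyme that tags lysosomal proteins with mannose 6-phosphate, was at 18.7 CPM in IL6Myc-1 and 44.6 to 64.9 CPM in the others. All 5 were called against each line singly, and their libraries did not overlap, which largely follows from such calls. Fuca2, Scarb2 and Gnptg were named after their values were seen.

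These genes stood beside a larger number of lysosomal genes that were not called. Of 36 lysosome and autophagy genes 35 were tested, and 4 were called lower (11.4%, beside 8.11% of all tested genes): Hexa, the beta-galactosidase gene Glb1, Ctsl and the autophagosome gene Map1lc3a. The median was -0.28, and IL6Myc-1 was the lowest line for 21 of the 35. None was called higher by edgeR or by DESeq2, and 3 were higher at an unadjusted p under 0.05 at any size. Glb1 and Ctsl were not called without IL6Myc-2 (log2 differences -0.92 and -0.71), nor with library totals in place of TMM scaling, which left 2 called. Sqstm1, the autophagy receptor p62, was at 273 CPM in IL6Myc-1 and 228 to 378 CPM in the others.

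Of 49 glycosyltransferases of the Golgi 30 were tested, with 7 called lower (23.3%, beside 8.11% of all tested genes). Called higher were 2 (6.67%, beside 4.39%), Abo and B4galt5. The median was -0.35, and -0.36 with genes at 0 counts set at their floor. B4galt5 was not called without IL6Myc-2 (log2 difference 0.89), and 4 were higher without IL6Myc-3. B4galnt1, which makes complex gangliosides, had 0.162, 0.0765 and 0.192 CPM in IL6Myc-1 and between 3.76 and 27.2 CPM (median 5.47) in the others. St6gal1, which adds sialic acid to N-glycans, was at 16.99 CPM in IL6Myc-1 and 29.5 to 149 CPM in the others. Fut4, which fucosylates the Lewis x antigen, and Galnt6, which starts O-glycans, were lower than each line singly. Tpst2, which sulfates tyrosines in the Golgi, was at 23.1 CPM in IL6Myc-1 and 71.05 to 139 CPM in the others.

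A few further genes called lower were abundant in the other lines. Selenop, the selenium carrier, had 1.04, 1.11 and 0.865 CPM in IL6Myc-1 and between 45.2 and 209 CPM (median 166) in the others, 46.6-fold below the nearest line (log2 difference -6.96, SE 0.07, edgeR adjusted p = 1.55e-20). Chit1, a chitinase best known from macrophages, had 3.65, 3.44 and 3.41 CPM in IL6Myc-1 and between 46.5 and 549 CPM (median 221) in the others. Cybb, the catalytic subunit of the phagocyte oxidase, which B cells also express, was at 12.9 CPM in IL6Myc-1 and 41.1 to 79.9 CPM in the others. Mpeg1, the perforin-like gene of macrophages, was at 2.57 CPM in IL6Myc-1 and 13.8 to 88.6 CPM in the others. Selenop and Cybb were named after their values were seen. Within the myeloid marker list, 4 of 9 tested genes (23 in the list) were called lower, Mpeg1, Fcgr4, C1qc and Itgam, and 1 higher, Mpo, at 1.37 CPM in IL6Myc-1 and 0.307 to 1.37 CPM in the others. C1qc was not called without IL6Myc-4 (log2 difference -0.69), nor Itgam without IL6Myc-2 (-0.50). Mpo was not called without IL6Myc-2 (0.66) or without IL6Myc-5 (0.89). Of the defining markers with at most 2 counts in IL6Myc-1, Csf1r, Cd14, Lyz2 and S100a8 reached at most 45 counts over the 3 libraries of another line (Csf1r in IL6Myc-3).

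Markers of other cell types gave small counts. Of the T and NK cell markers 6 of 20 were tested, with 2 lower (Cd4 and Lck) and 1 higher, Cd3g, at 12.5 CPM in IL6Myc-1 but 21.98 CPM in IL6Myc-4, and not called without IL6Myc-3 (log2 difference 0.85). Of 15 erythroid and megakaryocyte markers 2 were tested and 1 was lower, Itga2b. Of 19 stromal and endothelial markers 4 were tested, and Krt18, a keratin of simple epithelia, was lower than each line singly at 0.211 CPM in IL6Myc-1 and 9.51 to 17.4 CPM in the others. The part of other cells in these differences was not tested. Of 29 mature B cell genes 16 were tested and 3 were lower (18.8%, beside 8.11% of all tested genes), Cd24a, Ebf1 and Bank1. Without IL6Myc-3 6 were lower, and Bank1 was not called without IL6Myc-2 (log2 difference -0.92).

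Some genes of the secretory and stress programmes were called. Of 46 tested genes of the unfolded protein response and protein folding (48 in the list), 2 were called lower (4.35%, beside 8.11% of all tested genes), the co-chaperone gene Dnajc3 and the oxidase gene Ero1b, while the median was -0.29 and IL6Myc-1 was the lowest line for 26 of the 46. None was called higher by edgeR or by DESeq2, and 5 were higher at an unadjusted p under 0.05 at any size. Neither was called without IL6Myc-2 (log2 differences -0.93 and -0.97). Atp2a3, an endoplasmic reticulum calcium pump outside the list, was at 347 CPM in IL6Myc-1 and 581 to 1192 CPM in the others. The integrated stress response gave 3 of 35 tested higher (8.57%, beside 4.39% of all tested genes; 37 in the list) and 1 lower (2.86%, beside 8.11%), with a median of 0.31. The number higher was 1 without IL6Myc-3 and 5 without IL6Myc-5. Nupr1 was at 14.97 CPM in IL6Myc-1 and 3.31 to 8.99 CPM in the others. Trib3, a target of ATF4, was at 33.9 CPM in IL6Myc-1, below the 38.7 CPM of IL6Myc-2, and the secreted hormone gene Stc2 at 48.9 CPM, level with the 49.2 CPM of IL6Myc-5. Neither was called without IL6Myc-3 (log2 differences 0.86 and 0.78). Fgf21, another ATF4 target, was lower, at 0.756 CPM in IL6Myc-1 and 0.779 to 46.1 CPM in the others, and was not called without IL6Myc-2 (log2 difference -0.66).

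Metabolic genes were called in single steps. In the hypoxia list 19 of 23 genes were tested, with 2 higher (10.5%, beside 4.39% of all tested genes) and 1 lower (5.26%, beside 8.11%). Bnip3, a mitophagy receptor, had 231, 229.7 and 226 CPM in IL6Myc-1 and between 43.00 and 172 CPM (median 58.8) in the others. IL6Myc-5 was nearest at 167 CPM, and IL6Myc-2, IL6Myc-3 and IL6Myc-4 were at 44.9 to 61.4 CPM. Ndrg1 was also called higher. The oxygen sensor gene Egln3 had 0 counts in IL6Myc-1 and 0.113 to 10.7 CPM in the others. Egln1, the main oxygen sensor gene, had 0 counts in all lines but IL6Myc-2. In glycolysis 35 of 39 genes were tested, with 1 higher (2.86%, beside 4.39%) and 3 lower (8.57%, beside 8.11%). Pdk1, called higher, was at 154 CPM in IL6Myc-1 and 55.4 to 92.5 CPM in the others. Its paralogue Pdk3 was lower, at 9.003 CPM in IL6Myc-1 and 22.6 to 31.7 CPM in the others. Pdk1 was not called without IL6Myc-3 (log2 difference 0.90) or without IL6Myc-4 (0.99). Pfkm, a phosphofructokinase gene, was lower at 1.92 CPM in IL6Myc-1 and 3.498 to 18.03 CPM in the others. Of 26 tested nutrient transporters 3 were lower (11.5%, beside 8.11%). Of 16 tested iron genes 2 were higher (12.5%, beside 4.39%), Steap3 and the iron exporter gene Slc40a1 (ferroportin). Slc40a1 had 1.52, 2.22 and 2.26 CPM in IL6Myc-1 against a line mean of at most 0.0461 CPM elsewhere. Among 13 transcripts of mitochondrial DNA, 1 was higher, ND6, at 95.4 CPM in IL6Myc-1 and 31.3 to 74.7 CPM in the others. ND6 was not called without IL6Myc-4 (log2 difference 0.83), and it lies antisense to the other subunit genes.

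In all, 8 lists of growth and housekeeping genes had no member called by edgeR: replication (41 tested), mitosis (35), MYC targets and ribosome biogenesis (39), the respiratory chain (42), sterol and fatty acid synthesis (33), cytosolic ribosomal proteins (51), the proteasome (35) and histones (11). Of their 287 tested genes, 126 were higher and 85 lower at an unadjusted p under 0.05 at any size, and DESeq2 called 1 lower. The lists do not hold every gene of their kind. Rpl12, a ribosomal protein gene outside the list, was called higher, at 216 CPM in IL6Myc-1 and 78.7 to 120 CPM in the others. The median was 0.13 for replication genes, 0.19 for mitosis genes and -0.07 for ribosomal proteins, the last being 0.07 without IL6Myc-2.

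Some growth and survival genes were called. Ccnd2, a D cyclin, was outside the range of the other libraries at 1881, 1873 and 1859.8 CPM in IL6Myc-1 and between 845 and 1346 CPM (median 1147) in the others, but its log2 difference of 0.76 did not reach the size threshold. Of 25 tested D cyclin, kinase and inhibitor genes 2 were higher (8%, beside 4.39% of all tested genes) and 1 lower (4%, beside 8.11%). Higher were Cdkn1c and Cdkn2b, the p15 inhibitor, the latter at 12.1 CPM in IL6Myc-1 and 3.86 to 7.04 CPM in the others. Cdk6 was lower at 0.204 CPM in IL6Myc-1 and 0.209 to 1.61 CPM in the others, and was not called without IL6Myc-2 or without IL6Myc-5. Without IL6Myc-4 neither Cdkn2b nor Cdkn1c was called (log2 differences 0.84 and 0.66), and Cdkn1c was not called without IL6Myc-5 (0.93). Of 31 tested myeloma oncogenes and tumour suppressors 1 was lower, Egr1. Trp53 was at 105 CPM in IL6Myc-1 and 80.8 to 148 CPM in the others, and of 32 tested p53 targets 1 was higher (Plk2) and 1 lower (Trp73). In the BCL2 family 1 of 19 was called, the death-promoting gene Bik, lower than each line singly at 0.778 CPM in IL6Myc-1 and 1.78 to 7.305 CPM in the others, while Mcl1, the survival factor of plasma cells, was at 535 CPM in IL6Myc-1 and 463 to 1905 CPM in the others.

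Cell death by membrane rupture was represented by 2 genes called lower than each line singly. Ripk3, the kinase of necroptosis, had 0.762, 0.535 and 0.672 CPM in IL6Myc-1 and between 4.396 and 16.3 CPM (median 7.29) in the others, and Gsdmd, the pore former of pyroptosis, was at 0.161 CPM in IL6Myc-1 and 0.793 to 2.49 CPM in the others. In the same death receptor list 16 of 20 genes were tested, with 2 lower (12.5%, beside 8.11% of all tested genes) and 2 higher (12.5%, beside 4.39%). Tnfrsf21 (death receptor 6) and Casp4 were called higher against the mean, with Casp4 at 7.81 CPM in IL6Myc-1, below the 11.96 CPM of IL6Myc-2. Casp4 was not called without IL6Myc-5 (log2 difference 0.98). Among cytokines and their receptors (18 of 43 tested) Il18 was lower than each line singly, at 0.916 CPM in IL6Myc-1 and 2.88 to 5.65 CPM in the others, and Il1rap, the shared chain of the interleukin 1 receptors, was higher.

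Among chromatin genes (44 of 45 tested, 1 higher and 2 lower) the de novo DNA methyltransferase gene Dnmt3a had 0.439, 2.91 and 0.384 CPM in IL6Myc-1 and between 9.29 and 16.1 CPM (median 12.9) in the others (log2 difference -3.40, SE 0.34, edgeR adjusted p = 1.68e-07). One IL6Myc-1 library stood above the other 2 but below all 12 others. Dnmt3b was lower against the mean only, at 0.157 CPM in IL6Myc-1 and 0.0374 to 4.96 CPM in the others, and was not called without IL6Myc-3 (log2 difference -1.33). Hdac9, a class IIa histone deacetylase, had 28.8, 29.6 and 30.3 CPM in IL6Myc-1 and between 4.82 and 11.5 CPM (median 6.58) in the others, 2.797-fold above the nearest line. Ahr, the aryl hydrocarbon receptor, was at 18.4 CPM in IL6Myc-1 and 4.65 to 7.64 CPM in the others and was named after its value was seen. Of 32 tested mutation and repair genes 1 was called, Mgmt, which repairs alkylated guanine, at 60.8, 62.5 and 58.4 CPM in IL6Myc-1 and between 1.73 and 55.2 CPM (median 7.31) in the others, with IL6Myc-3 close behind at 54.3 CPM.

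Among targets of myeloma therapy, Tnfrsf17, which encodes BCMA, was called higher at 43.7, 50.6 and 48.4 CPM in IL6Myc-1 and between 8.502 and 37.9 CPM (median 15.02) in the others, with IL6Myc-4 nearest at 37.1 CPM. Cd38 was at 80.3 CPM in IL6Myc-1 and 64.97 to 94.3 CPM in the others, Slamf7 at 165 CPM in IL6Myc-1 and 93.1 to 211 CPM in the others, and Tnfrsf13b, which encodes TACI, at 137 CPM in IL6Myc-1 and 138 to 184 CPM in the others. Ikzf3, a target of immunomodulatory drugs, was called lower at 2.64 CPM in IL6Myc-1, a level close to the 2.51 CPM of IL6Myc-3. In this list 22 of 27 genes were tested, with 2 higher (9.09%, beside 4.39% of all tested genes) and 1 lower (4.55%, beside 8.11%). The other one higher, Ikzf4, was not called without IL6Myc-3 (log2 difference 0.78). Among bone disease genes (9 of 29 tested) Ccl3 was the 1 higher, and 4 were lower, none of them against each line singly.

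**Figure D4:**
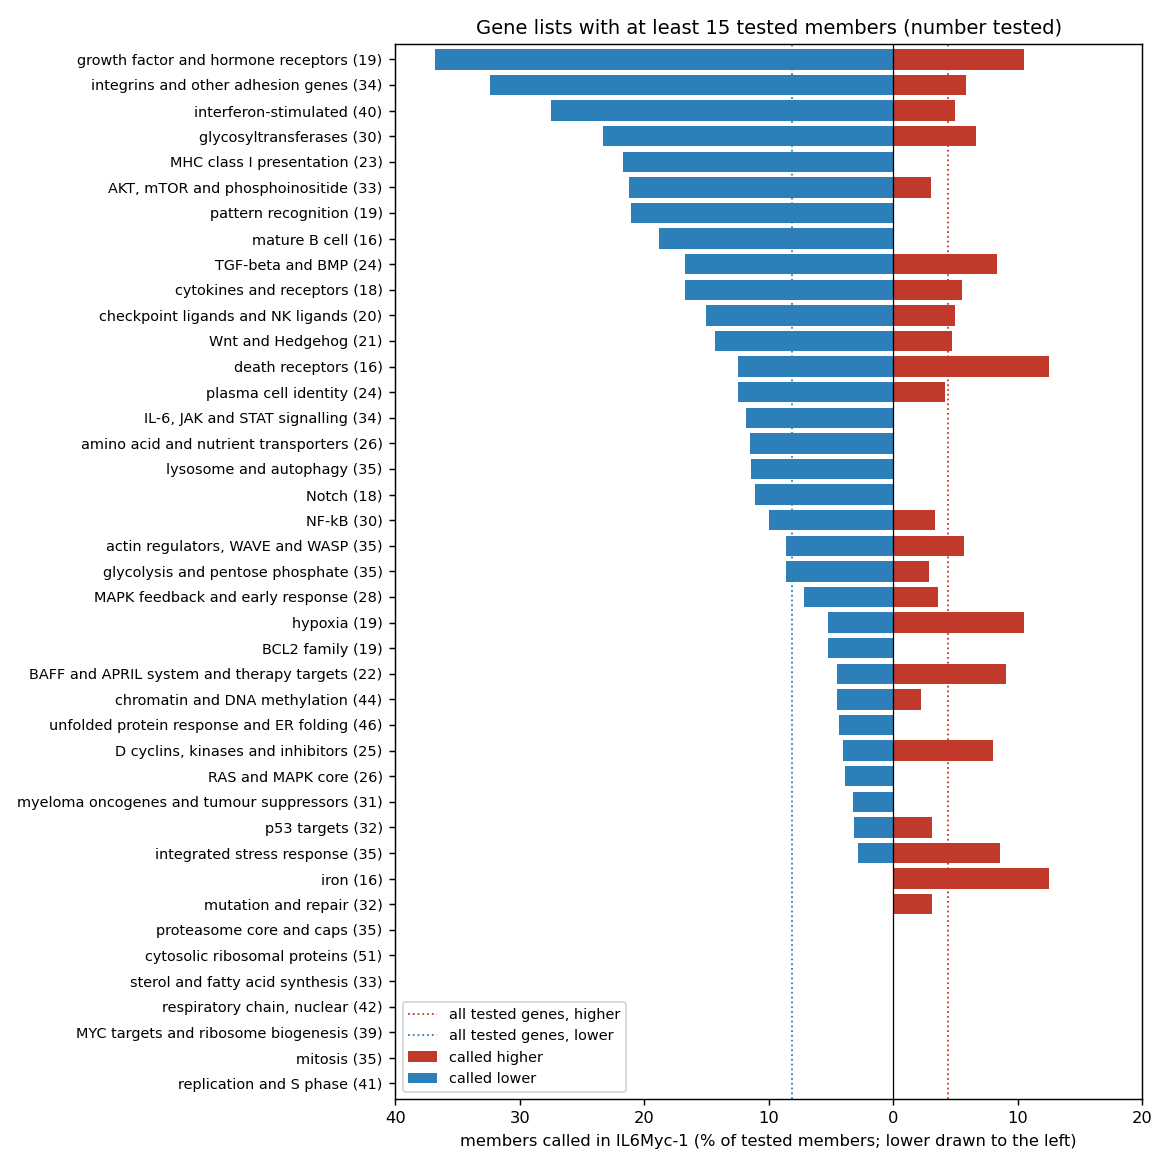
Share of the tested members of each gene list called higher (red, to the right) and lower (blue, to the left) in IL6Myc-1, in percent, for the lists with at least 15 tested members. Dotted lines mark the shares over all tested genes, 4.39% higher and 8.11% lower. The blue bars of growth factor receptors (36.8%) and adhesion genes (32.4%) hold members near 0 counts in IL6Myc-1 that passed the filter through the other lines, so bar lengths do not rank the lists. The 7 lists at the bottom have no called member.

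Called genes lay on every chromosome, and the medians of the autosomes and the X chromosome ran from -0.32 to 0.33. The median log2 difference was 0.33 over 957 tested genes of chromosome 2, 0.26 over 546 genes of chromosome 3 and 0.25 over 274 genes of chromosome 18. Each of these 3 medians was above 0 against all 4 lines, and so were those of chromosomes 1 and 19. The 3 ran from 0.29 to 0.35 for chromosome 2, 0.21 to 0.31 for chromosome 3 and 0.16 to 0.31 for chromosome 18. Below 0 against all 4 lines were the medians of chromosomes 7, 8, 10, 11, 14, 15 and X. Chromosome 14 lay at the other end with a median of -0.32 over 375 genes, ranging from -0.06 against IL6Myc-3 to -0.54 against IL6Myc-4. Of the genes of chromosome 17, which holds the MHC region, 13.9% were called lower, with medians of -0.37 against IL6Myc-2 and 0.06 against IL6Myc-3. The medians share the IL6Myc-1 libraries.

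**Figure D5:**
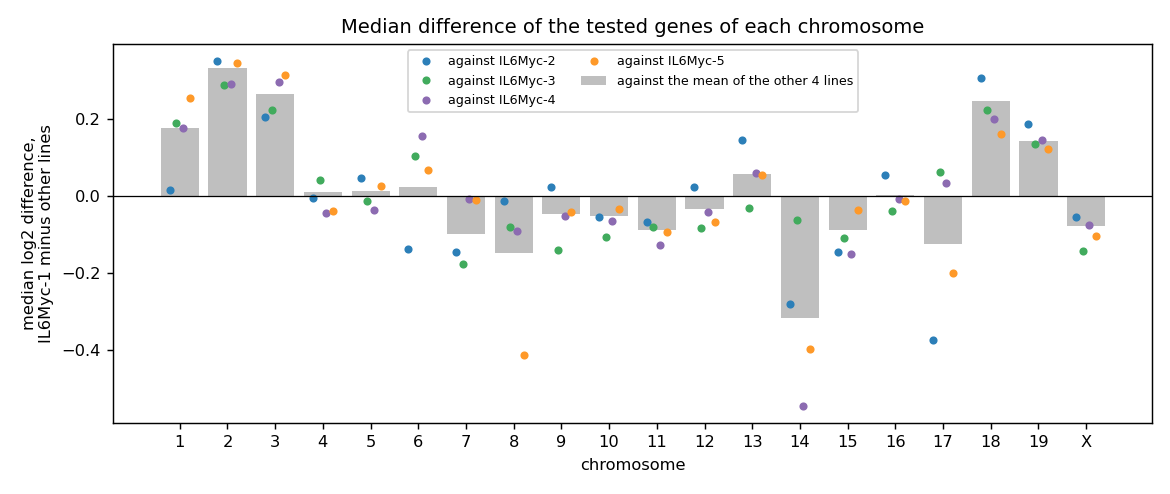
Median log2 difference of the tested genes of each chromosome, IL6Myc-1 minus the mean of the other 4 lines (grey bars) and IL6Myc-1 minus each line (points). Chromosomes 1, 2, 3, 18 and 19 have all 4 points above 0. Chromosomes 7, 8, 10, 11, 14, 15 and X have all 4 below 0, and those of chromosome 14 spread from -0.06 to -0.54.

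Some called genes were neighbours among the tested genes. Among 11719 genes placed in order along the chromosomes, 30 runs of at least 3 consecutive tested genes were called in the same direction, 5 of them higher and 25 lower, with 5 genes at most in a run. Mfge8 lay between Isg20 and Abhd2, a lipase gene at 1.53 CPM in IL6Myc-1 and 10.9 to 29.4 CPM in the others, and all 3 were lower than each line singly. On chromosome 17 the neighbours Ciao3, Haghl, Antkmt, Metrn and Fbxl16 were lower, of which Metrn lay at the size threshold itself. On the X chromosome the homeobox genes Rhox2g, Rhox2h and Rhox5 were lower, with Rhox5 at 0.838 CPM in IL6Myc-1 and 5.02 to 102 CPM in the others, and reads of the Rhox2 copies can be split among them. On chromosome 1, Igfbp2 lay beside Igfbp5, a second binding protein gene, at 1.03 CPM in IL6Myc-1 and 7.496 to 43.99 CPM in the others, and Chit1 beside its relative Chil1, which was not called without IL6Myc-2 (log2 difference -0.50). Higher runs included the complement regulator genes Cd55b, Cd55 and C4bp on chromosome 1, and Elovl7, Depdc1b, Pde4d and Plk2 on chromosome 13. Cd55 was at 6.53 CPM in IL6Myc-1 and 0.124 to 5.18 CPM in the others, and Plk2, a stress-induced kinase, at 21.3 CPM in IL6Myc-1 and 6.27 to 13.4 CPM in the others. Snap25, Mkks and Slx4ip on chromosome 2 made a further run, with Mkks at a log2 difference of 1.04 and not called without IL6Myc-4 (0.95).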

How the data were processed

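The deposited table holds estimated counts for 32434 gene entries in 15 RNA-seq libraries, 3 technical replicates of each of 5 lines. Its name refers to TPM, but the column totals differ between libraries and low values cluster at whole numbers (of those from 0 to 1.5, 0 left out, 30.8% to 54.3% per library lie within 0.02 of 1), so the values were treated as estimated counts that the authors deposited without normalization. A further column, equal to the mean of the 15 libraries to within 6e-05, was not used. Per the labels, RNA was extracted with the RNeasy mini kit and libraries were made with TruSeq Stranded Total RNA. The submitters' processing notes name Trim Galore 0.4.0, DESeq2 and GRCm39. The aligner, quantifier, annotation and use of strand were not given in the sources used here.

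After rounding, the values were tested with edgeR 4.0.16 (R 4.3.3, TMM scaling, quasi-likelihood, line as the single factor) over 11773 genes that reached 1 CPM in 3 or more libraries. The contrast was IL6Myc-1 minus the mean of the other 4 line coefficients, and the 4 pairwise contrasts came from the same fit. Alternatives used DESeq2 1.42.0, limma 3.58.1 with a pseudocount of 1 or 5, other scalings and filters, a replicate block, and fits without 1 library or 1 line. Counts were simulated for the comparison with the mean of 4 lines, over 11773 genes. Apart from the genes changed in IL6Myc-1, each gene had the same mean in all lines. Every gene had the same spread beyond counting noise (coefficient of variation 0.064). There edgeR found 99 of 100 genes changed 2-fold and 100 of 100 changed 4-fold, at the right sign and an adjusted p under 0.05. It called 51 and 100 of them under the rule that also asks for a log2 difference of 1, with 0 false calls. Since the other lines did not differ there and no gene was noisier than the rest, the 0 false calls cannot speak for the deposited data. No 2 libraries held identical values. Between replicates of a line, chi-square values over genes were 4.54 to 20.0 times their degrees of freedom, above sampling noise. Libraries with the same replicate number in different lines did not deviate together (correlation -0.0841 to 0.110, median 0.00698, over 30 pairs). Gene order, chromosomes and promoters came from RefSeq tables of GRCm38.p6, another build than that of the counts, by gene symbol (32186 entries, 99.2%, matched), so no coordinates of the counted genes are given. A floor of 3 counts per line (0.0332 CPM in IL6Myc-1) stands for 0, and it covers counting error only.

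The members, gene lists and named genes were chosen with earlier results of these data known. Named genes were drawn from several groups, and not every gene of a group is named. A first group was the 20 largest differences in each direction where libraries did not overlap and the higher side reached 5 CPM. Others were up to 5 called members of a list and the 10 called genes with the highest CPM, each in both directions. Genes at 0 counts on 1 side and runs of neighbours made up the rest, and uncalled list members were named for contrast. Genes named after their values were seen are marked in the text.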

Additional observations from a re-analysis of the deposited data

How the results depend on the processing

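The counts of 517 genes higher and 955 lower, and of 135 and 377 against each line singly, stayed within 1.5 times under DESeq2 (511 and 1019 against the mean), RLE scaling (512 and 962) and library totals in place of TMM (582 and 881). Against the mean without any 1 of the 4 lines, where singly counts were not made, there were 514 to 583 higher and 895 to 1065 lower. Leaving out 1 library at a time gave 504 to 524 higher and 935 to 963 lower, and singly 129 to 142 and 365 to 379. The replicate numbers did not pair the libraries, and a fit with them as a block gave 518 and 950, and singly 139 and 373. Limma on log2(CPM + 1) gave 294 and 630, with 179 lower singly, and on log2(CPM + 5) 100 and 266, with 32 and 69 singly, since a pseudocount shrinks the differences of low genes. Without a filter 977 genes were called higher and 1248 lower. With at least 5 CPM in 3 libraries there were 282 and 591, and 65 higher singly, from fewer genes tested. Of the 1472 called genes, 1459 kept their call and direction under DESeq2, 893 and 363 under the limma fits, and 1254 to 1397 without 1 of the lines. Ly6k reversed without IL6Myc-2 (log2 difference -0.14), and the cause was not tested. Without IL6Myc-4, 1 of the 1472 genes, not among those named, was called in the opposite direction. With library totals the median of all genes moved to 0.0835, Cd44 was called higher (1.02), and B2m (-0.96), Ctsl (-0.97), Myd88 (-0.99), Tsc2 (-0.95), Glb1 (-0.94) and Metrn (-0.92) lost their calls. Library totals changed the sign of the median of 9 of 51 lists with at least 5 tested genes, RLE scaling of 0, and leaving out a line of 2 to 6. With 1 culture per line, no setting measures how far cultures of a line differ, and depth limits genes near the floor of 3 counts.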
